A study of Mus musculus with 6 samples.

Results

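Cxcl1, Cxcl2, Cxcl3, Ppbp and Pf4 are CXC chemokine genes that lie in 1 cluster on mouse chromosome 5, and their RNA was measured here in monocytes from tumor and from spleen. A gene was taken where a probe set of the array carries exactly 1 gene symbol and that symbol is the gene's. All 5 genes had such a probe set, 1 each, among 22180 genes so named, and all 5 passed the filter on low values that left 18458 genes for testing. Mouse Gene 2.0 ST arrays were run on RNA of 6 samples; they combine short oligonucleotide probes into 1 intensity per probe set. All mice had been given Th9 cells, a kind of helper T cell, and tissue was taken 10 days later, so both groups carry that treatment and no untreated group was analysed here. The cells were sorted for CD11b and high Ly6C and against CD11c, a gate for inflammatory monocytes, and came from spleen (3 arrays) or from tumor (3 arrays). The sources used here do not give the kind of tumor or the strain and age of the mice.

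Cxcl1, Cxcl2 and Cxcl3 encode chemokines with the glutamate-leucine-arginine signature before the CXC cysteines, which bind the receptor CXCR2 and draw neutrophils into inflamed tissue. They are classic targets of the transcription factor NF-kB and are switched on in monocytes and macrophages within hours of a Toll-like receptor or cytokine signal. Ppbp encodes pro-platelet basic protein, which proteases trim to a CXCR2 ligand, and Pf4 encodes platelet factor 4, which lacks that signature and binds heparin. Both proteins are best known as cargo of platelet alpha granules, although myeloid cells can also make their RNA.

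The promoter sequences of the 5 genes are shown as a description, and their part in the changes of RNA was not tested. RefSeq sequences of the build GRCm38.p6 matched all 5 genes, and the 150 bases before the annotated start of the transcript are given 5′ to 3′. All lie on the plus strand of chromosome 5, at chr5:90891095-90891244 for Cxcl1, chr5:90903749-90903898 for Cxcl2, chr5:90785951-90786100 for Cxcl3, chr5:90768368-90768517 for Ppbp and chr5:90772285-90772434 for Pf4. Capitals mark matches on either strand to the NF-kB consensus, to TATAAA and to ATAAAAGG.
Cxcl1: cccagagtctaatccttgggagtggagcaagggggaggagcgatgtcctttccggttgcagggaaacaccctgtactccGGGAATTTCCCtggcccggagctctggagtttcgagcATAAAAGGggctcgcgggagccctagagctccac
Cxcl2: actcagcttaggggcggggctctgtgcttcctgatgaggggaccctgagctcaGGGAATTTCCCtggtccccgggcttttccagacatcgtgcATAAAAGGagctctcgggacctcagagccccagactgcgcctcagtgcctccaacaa
Cxcl3: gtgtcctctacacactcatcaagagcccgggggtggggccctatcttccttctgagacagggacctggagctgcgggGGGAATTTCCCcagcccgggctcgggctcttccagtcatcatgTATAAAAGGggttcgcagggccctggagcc
Ppbp: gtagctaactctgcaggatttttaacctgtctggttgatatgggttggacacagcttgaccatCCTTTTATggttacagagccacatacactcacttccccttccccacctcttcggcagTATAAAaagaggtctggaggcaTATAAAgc
Pf4: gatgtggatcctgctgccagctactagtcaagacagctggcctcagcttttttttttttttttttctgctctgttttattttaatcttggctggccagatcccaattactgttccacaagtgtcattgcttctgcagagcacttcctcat

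The same kB sequence, GGGAATTTCC, stood in the promoters of Cxcl1, Cxcl2 and Cxcl3, and neither Ppbp nor Pf4 held a match to the NF-kB consensus in the 300 bases searched (250 before and 50 after the start). It began 71 bases before the start in Cxcl1, 97 in Cxcl2 and 73 in Cxcl3. The consensus matched there on both strands at overlapping positions. Of 32851 promoter windows in the RefSeq table, 4.51% held the NF-kB consensus and 0.0883% (29 windows) held these exact letters. ATAAAAGG, a TATA-type element found in 1.76% of windows, followed the kB sequence in each of the 3 genes, with 27 bases between them in Cxcl1, 30 in Cxcl2 and 34 in Cxcl3. Ppbp held this element on the minus strand. TATAAA (13.6% of windows) stood 30 bases before the start in Cxcl3, and in Ppbp at 2 places, 30 and 8 bases before the start. Pf4 held neither element. The exact kB sequence was chosen for the search after the promoters had been read, and a match describes the letters and is not evidence of binding.

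**Figure D1:**
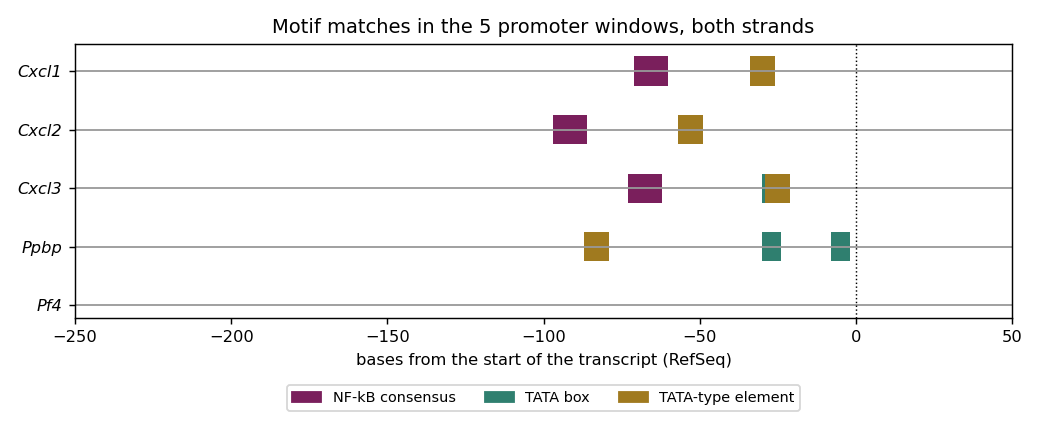
Position of motif matches in the promoter window of each gene, in bases from the annotated start of the transcript (dotted line). Boxes are matches on either strand to the NF-kB consensus, the TATA box and the TATA-type element named in the text, and the NF-kB box appears in Cxcl1, Cxcl2 and Cxcl3, where it begins 71, 97 and 73 bases before the start, and in neither Ppbp nor Pf4.

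Over the 300 bases, Cxcl2 and Cxcl3 were 62.0% identical in a global alignment, Cxcl1 and Cxcl3 56.4% and Cxcl1 and Cxcl2 55.6%. Pairs with Ppbp or Pf4 lay between 45.1% (Cxcl3 with Pf4) and 52.8% (Cxcl3 with Ppbp). The longest run shared by Cxcl1 and Cxcl2 was GCACTCCAGACTCCAGCCAC, of 20 bases. The promoters of Cxcl1, Cxcl2 and Cxcl3 were also richer in G and C, at 58.7%, 60.7% and 61.0%, against 48.7% in Ppbp and 43.3% in Pf4.

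The tumor arrays had more Cxcl1, Cxcl2 and Cxcl3 RNA and less Ppbp RNA than the spleen arrays, while Pf4 differed little. Cxcl2 rose 4.38-fold, Cxcl3 2.89-fold and Cxcl1 1.78-fold, and Ppbp fell 3.99-fold. Folds come from log2(intensity + 1), which slightly understates them, and a gene was called at a Benjamini-Hochberg adjusted p under 0.05 over all genes tested (limma). Among all genes tested 5.73% were called higher in tumor and 4.85% lower, so 3 of these 5 genes fell in the first class and 1 in the second. That background depends on the setting: 1057 genes were higher and 895 lower here, 1585 and 1921 with quantile normalization, 1483 and 1806 with median centring, and 2153 and 3193 with the replicate number as a block. At least 2-fold and called were Cxcl2 and Cxcl3 among the rises (3.74% of all genes tested) and Ppbp among the falls (1.59%). The tumor and spleen values did not overlap in any of the 5 genes, Pf4 included, which held for 25.4% of all genes tested (9.81% with tumor higher and 15.5% with tumor lower). Whether the samples within each group are separate animals is not stated, so the p-values may reflect technical spread alone. With 3 arrays a group, the smallest p of an exact two-sided permutation test is 0.1. In a bulk sample, fewer cells that make a transcript and less of it per cell cannot be told apart.

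**Figure D2:**
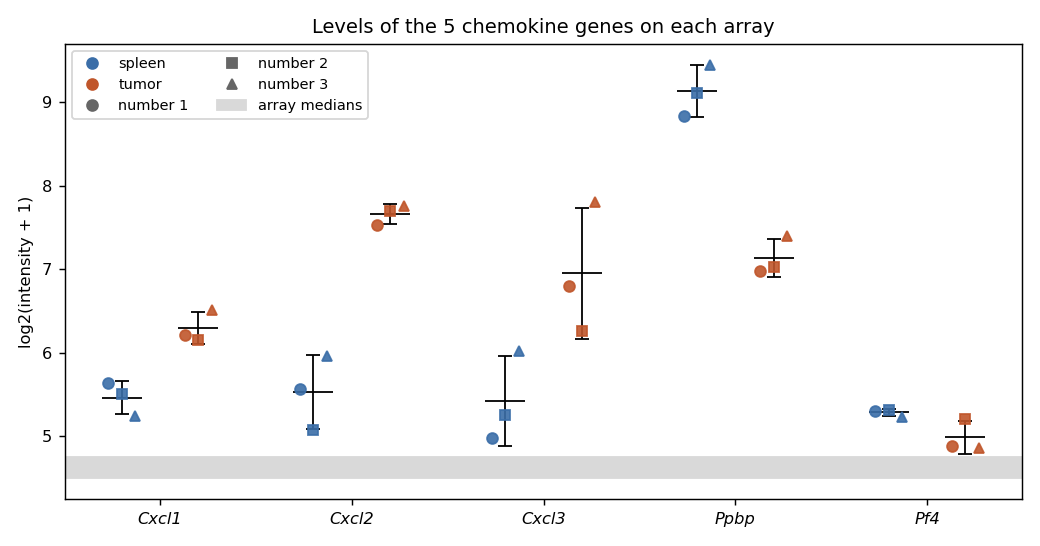
Level of each gene on each array, as log2(intensity + 1), with spleen in blue and tumor in orange; marker shape gives the replicate number of the labels, horizontal lines with bars are means ± SD (n = 3), and the grey band spans the array medians. Tumor values lie above spleen values for Cxcl1, Cxcl2 and Cxcl3 and below them for Ppbp, and the groups lie within 1 log2 unit of each other for Pf4.

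Cxcl2, which encodes the neutrophil chemoattractant also known as MIP-2, changed most among the 3 rising genes. Its intensity was 46.3, 32.7 and 61.2 on spleen arrays 1 to 3 and 183, 207 and 216 on tumor arrays 1 to 3. Every tumor array thus exceeded the highest spleen array. On the log2 scale the level went from 5.53 ± 0.44 (SD, n = 3) to 7.66 ± 0.12, a rise of 2.13 ± 0.23 (SE; limma adjusted p = 5.6e-04). That was the 201st largest rise among the 18458 genes tested. Arrays with the same number differed by 1.96, 2.62 and 1.80. Ranked among the named genes of each array, Cxcl2 lay at percentiles 50.7 to 58.2 in spleen and 78.4 to 81.3 in tumor. The call held with each array left out in turn, with adjusted p up to 0.00456 (limma).

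Cxcl3, a close relative of Cxcl2 with the same receptor, rose with the widest spread of the 5 genes. Its intensity was 30.5, 37.2 and 64.0 on spleen arrays 1 to 3 and 110, 75.4 and 222 on tumor arrays 1 to 3. Array 3 was the highest of its group in both tissues, and the lowest tumor value stood only a little above the highest spleen value. The level went from 5.42 ± 0.54 (SD, n = 3) to 6.95 ± 0.79, a rise of 1.53 ± 0.40 (SE; limma adjusted p = 0.0468). Its spread within groups was larger than that of 99.2% of the genes tested. Among the named genes of each array Cxcl3 lay at percentiles 48.9 to 58.8 in spleen and 66.1 to 78.8 in tumor. The call was lost without spleen 1 (limma adjusted p = 0.145), spleen 2 (0.14), tumor 1 (0.131) or tumor 3 (0.0714), and without tumor 3 the rise was 1.11. Arrays with the same number differed by 1.82, 1.0 and 1.78, and among the arrays numbered 1 and 2 alone the rise was 1.41 (limma adjusted p = 0.0409).

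Cxcl1, also called KC, another ligand of CXCR2, rose least of the 3. Its intensity was 48.6, 44.6 and 36.9 on spleen arrays 1 to 3 and 73.4, 70.4 and 90.6 on tumor arrays 1 to 3. The groups were apart, and array 3 held the lowest spleen value and the highest tumor value. Among the named genes of each array Cxcl1 lay at percentiles 49.3 to 58.4 in spleen and 65.0 to 65.8 in tumor. The level went from 5.46 ± 0.20 (SD, n = 3) to 6.30 ± 0.19, a rise of 0.83 ± 0.17 (SE; limma adjusted p = 0.0169). Arrays with the same number differed by 0.59, 0.65 and 1.27, so the pair numbered 3 alone gave a rise over 1.5 times that of all arrays. The call was lost without spleen 2 (limma adjusted p = 0.0665) or without tumor 1 (0.0627).

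Cxcl1, Cxcl2 and Cxcl3 are similar in sequence, so their probe sets could read each other's transcripts, which was not tested. Spleen array 3 held the lowest spleen value of Cxcl1 and the highest of Cxcl2 and of Cxcl3. Differences between the changes of 2 genes were compared over all 10 pairs of the 5 genes, as per-array log2 differences, with an exact two-sided permutation test. The rise of Cxcl2 exceeded that of Cxcl1 by 1.29 ± 0.35 (SE), with per-array differences that did not overlap (exact p = 0.1, the smallest possible; 0.125 adjusted over the 10 pairs). Cxcl2 against Cxcl3 (0.60 ± 0.49, exact p = 0.2) and Cxcl1 against Cxcl3 (-0.70 ± 0.55, exact p = 0.3) overlapped, and were the 2 pairs of the 10 that did so. The difference between the falls of Ppbp and Pf4 was -1.70 ± 0.29, again with an exact p = 0.1.

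Ppbp had the largest fall of the 5 genes and the 14th largest among the 18458 genes tested. Its intensity was 455, 552 and 697 on spleen arrays 1 to 3 and 125, 129 and 168 on tumor arrays 1 to 3. Every spleen array stood far above the highest tumor array, and array 3 was the highest in both groups. The level went from 9.13 ± 0.31 (SD, n = 3) to 7.13 ± 0.23, a fall of 2.00 ± 0.20 (SE; limma adjusted p = 4.4e-04). Arrays with the same number differed by -1.85, -2.09 and -2.05, which is the narrowest range of the 4 called genes in this cluster. Among the named genes of each array Ppbp lay at percentiles 91.7 to 93.2 in spleen and 73.8 to 74.8 in tumor. The call held with each array left out in turn, with adjusted p up to 0.00482 (limma).

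Pf4, the neighbour of Ppbp on the chromosome, ranked near the middle of the named genes of each array. It lay at percentiles 49.1 to 54.2 in spleen and 43.3 to 53.4 in tumor. That rank meant a low intensity, under that of Ppbp on every array. Its intensity was 38.5, 38.9 and 36.6 on spleen arrays 1 to 3 and 28.5, 35.9 and 28.1 on tumor arrays 1 to 3. The highest tumor array lay just under the lowest spleen array. The level was 5.28 ± 0.05 (SD, n = 3) in spleen and 4.99 ± 0.19 in tumor, a difference of -0.30 ± 0.15 (SE; limma adjusted p = 0.325), with a 95% confidence interval from -0.65 to 0.05. The difference therefore did not pass the test, and its interval leaves out a fall of the size seen in Ppbp.

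The genes stand in the order Cxcl5, Ppbp, Pf4, Cxcl3, Cxcl15, Cxcl1, Cxcl2 in the RefSeq annotation, with no other gene listed between them, and Mthfd2l follows Cxcl2. The cluster thus held a gene that fell and 3 that rose, with Pf4 between them. Cxcl5, another CXCR2 ligand, was not tested because it lay too low, at intensities of 8.75 to 14.1 over all 6 arrays. Cxcl15, a lung chemokine, had intensities of 7.16 to 13.5 and a difference of 0.02 ± 0.24 (SE; limma adjusted p = 0.988). Mthfd2l, a mitochondrial folate enzyme gene outside the family that was chosen for its place, stood at 0.41 (adjusted p = 0.501).

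Other chemokine genes give the scale of these changes. In the chemokine, receptor, inducer and NF-kB lists below, 0 genes were lower also at an unadjusted p under 0.05 (limma). Of the 9 other CXC chemokines tested, 3 rose and 0 fell at the threshold (limma), with a median difference of 0.16 against -0.05 for all genes tested. The 3 were the CXCR3 ligands Cxcl10 (6.24 ± 0.27), Cxcl11 (5.21 ± 0.23) and Cxcl9 (5.06 ± 0.26), which draw activated T cells, and each rose by more than Cxcl2. Of 9 inflammatory CC chemokines, which draw monocytes and lymphocytes, 6 rose, with a median difference of 1.44. Ccl4 (3.75 ± 0.23), Ccl12 (2.48 ± 0.21) and Ccl3 (2.27 ± 0.20) rose by amounts at or above that of Cxcl2, and Ccl2 (1.95 ± 0.15), Ccl5 (1.44 ± 0.14) and Ccl7 (0.95 ± 0.21) by less. Ppbp was the only one of the chemokine genes tested here, these lists and the 5 genes together, that fell at the threshold, although Cxcl14 (-0.33) was also called lower with the replicate number as a block (limma adjusted p = 0.0428).

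**Figure D3:**
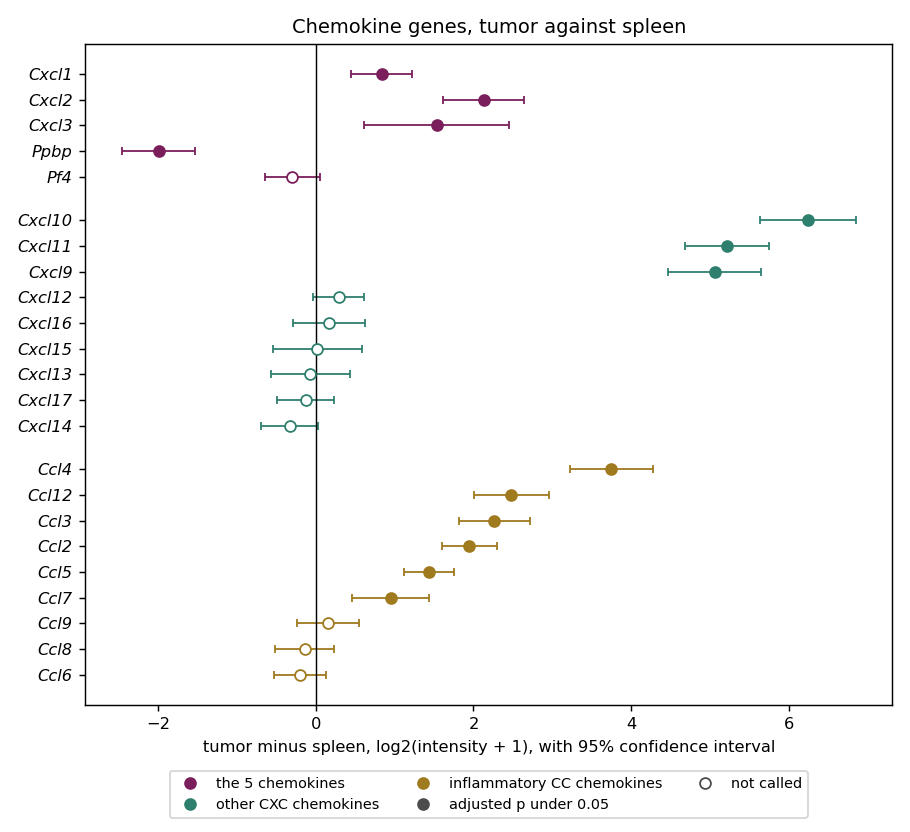
Difference between tumor and spleen for the 5 chemokines, 9 other CXC chemokines and 9 inflammatory CC chemokines that were tested, on the log2(intensity + 1) scale with 95% confidence intervals from limma. Filled points had an adjusted p under 0.05; Cxcl10, Cxcl11 and Cxcl9 lie above 5, Cxcl2 at 2.13, and Ppbp at -2.0 is the only filled point left of 0.

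Of 5 tested receptor and binding genes 1 rose and 0 fell (limma). Cxcr2, the receptor of Cxcl1, Cxcl2, Cxcl3 and trimmed Ppbp, was measured at 6.36 and 6.23 in spleen and tumor (difference -0.14 ± 0.17, adjusted p = 0.793), and Cxcr1 stood at 0.05 ± 0.20. Cxcr3, a receptor that Pf4 can bind, stood at 0.07 ± 0.13, and Ackr1, the decoy receptor of red cells and vessels, lay too low for testing. The gene that rose was Sdc4, a heparan sulfate proteoglycan of the cell surface that holds chemokines, from 8.74 ± 0.08 (SD, n = 3) to 10.23 ± 0.09, by 1.49 ± 0.14 (SE; limma adjusted p = 2.8e-04).

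Genes that induce these chemokines rose in 7 of 14 cases and fell in 0, with a median difference of 0.97. Among them were the cytokines Il6 (4.50 ± 0.25), Tnf (2.65 ± 0.18), Il1a (2.45 ± 0.16) and Il1b, the lipopolysaccharide co-receptor Cd14 (2.01 ± 0.17), the adaptor Myd88 (1.85 ± 0.20) and the receptor Tlr2 (1.70 ± 0.16). The receptor of IL-17, Il17ra, stood at -0.03 ± 0.16 and Tlr4 at 0.17 ± 0.31, and neither passed the test. Of 11 tested genes of NF-kB subunits and their feedback, 4 rose and 0 fell, with a median of 0.54, and 9 rose with the replicate number as a block. The 4 were the inhibitors Nfkbie (1.58 ± 0.17), Nfkbia (1.13 ± 0.21) and Tnfaip3 (1.40 ± 0.17), and Nfkbiz (1.44 ± 0.14), a coactivator. The subunits Rela (0.28 ± 0.16), Rel (0.46 ± 0.24) and Relb (0.20 ± 0.20) were not called.

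Among 7 genes whose products set how long chemokine and cytokine transcripts last, most by speeding decay and Elavl1 (HuR) by slowing it, 1 fell and 0 rose, with a median of -0.17. Zfp36l2 fell by 1.43 ± 0.17 (limma adjusted p = 9.5e-04), while Zfp36, which encodes tristetraprolin, stood at 0.43 ± 0.14 and Zc3h12a, or Regnase-1, at -0.26 ± 0.17. At an unadjusted p under 0.05 (limma), and also with the replicate block, 1 of these genes was higher and 2 were lower. Among 7 tested proteases that trim chemokines 1 rose and 2 fell, with a median of 0.06. Dpp4 rose by 0.87 ± 0.20, and Mmp9 (-1.12 ± 0.17) and Mmp8 (-0.68 ± 0.16) fell. Ctsg, the cathepsin G gene, whose product trims pro-platelet basic protein, stood at 0.08 ± 0.16 (adjusted p = 0.894).

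Genes of alpha granule cargo and packaging went both ways, with 2 of 13 higher and 4 lower and a median of -0.29. Nbeal2, which granule formation requires, fell by 1.49 ± 0.16, von Willebrand factor, Vwf, by 1.37 ± 0.15, the growth factor gene Pdgfb by 0.81 ± 0.15 and fibronectin, Fn1, by 0.78 ± 0.16. Thbs1, which encodes thrombospondin, rose by 1.37 ± 0.16 and coagulation factor F5 by 1.30 ± 0.15. With the replicate block 4 of the list were higher and 5 lower.

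Markers of platelets and megakaryocytes were measured beside Ppbp and Pf4. Of 16 listed, 13 had a probe set and were tested. Of these, 1 was higher and 0 were lower (limma), with a median difference of 0.02 against -0.05 for all genes tested. At an unadjusted p under 0.05, 1 was higher and 1 lower. The summed intensity of the 13 lay between 432 and 486 in spleen and between 404 and 497 in tumor, so the groups overlapped. Gp6, the collagen receptor of platelets, rose by 0.87 ± 0.20 (limma adjusted p = 0.0257). Its intensity was low, at 12.9 to 20.7 in spleen, under the array medians, and 28.2 to 34.8 in tumor. The integrin gene Itgb3 stood at -0.50 ± 0.18 (limma adjusted p = 0.139, and 0.0121 with the replicate block). Itga2b, the platelet integrin subunit, stood at 0.11 ± 0.14, and Gp9 at -0.13 ± 0.21. Mmrn1 and Pear1 lay below the array median on all 6 arrays. Gp5, Gata1 and Nfe2 lay above it on only 2 of the 6 arrays. The part of platelets in the values of Ppbp and Pf4 was not tested.

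Neutrophil markers were read for the same reason, since neutrophils are the cells these chemokines draw. Of 16 tested, 0 were higher and 2 lower, Mmp9 and Mmp8, with a median of -0.09. At an unadjusted p under 0.05, 0 were higher and 3 lower (limma), and with the replicate block 1 was higher and 4 were lower. Their summed intensity lay between 3994 and 5217 in spleen and between 3166 and 3826 in tumor. Mmp8 alone made up a large part of these sums, at 1731 to 2304 in spleen and 1147 to 1340 in tumor. The sums therefore largely follow 1 gene, and the part of neutrophils in the changes of the 5 genes was not tested. S100a8 stood at -0.37 ± 0.20, S100a9 at -0.29 ± 0.31 and Ly6g, the antigen that defines neutrophils, at -0.05 ± 0.35 from a level of 5.06 in spleen, and none was called.

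**Figure D4:**
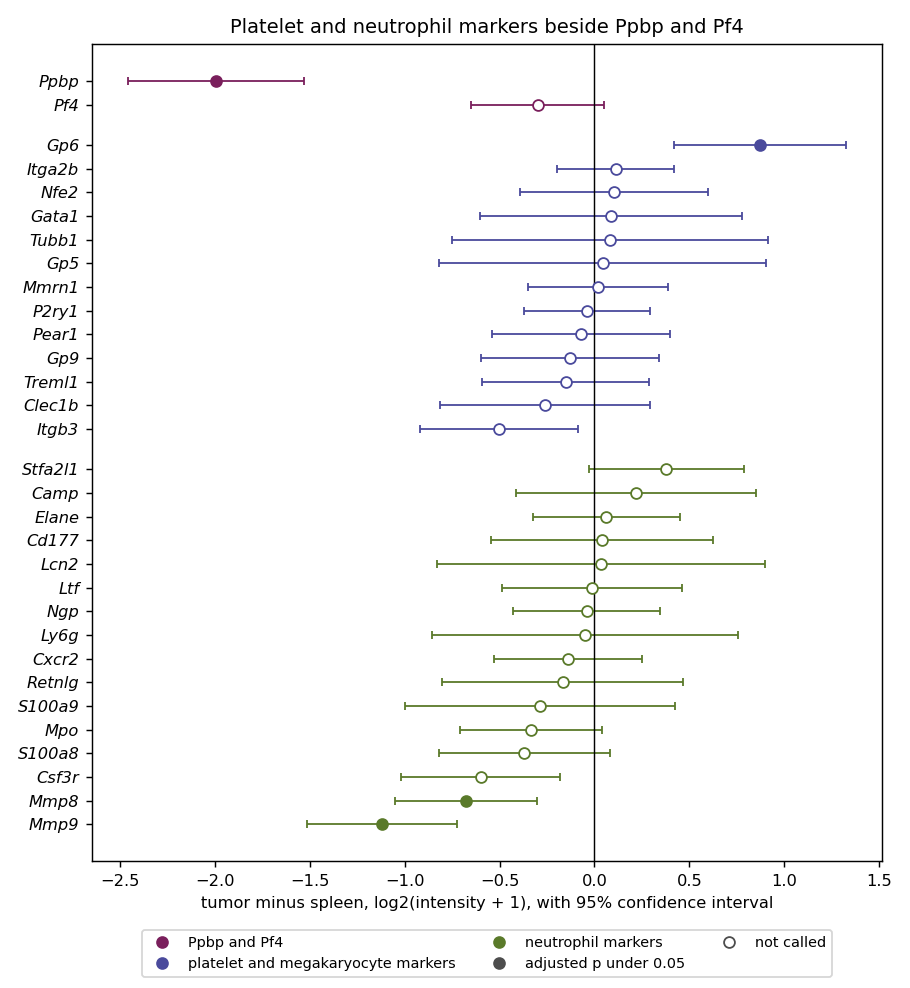
Difference between tumor and spleen for Ppbp and Pf4, 13 platelet and megakaryocyte markers and 16 neutrophil markers, on the log2(intensity + 1) scale with 95% confidence intervals from limma; filled points had an adjusted p under 0.05. Ppbp lies at -2.0, while the platelet markers lie between -0.50 and 0.87 and the neutrophil markers between -1.12 and 0.38.

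The other checks concern the arrays and the sorted cells as a whole, and not the 5 genes in particular. The median log2 intensity was 4.50 to 4.51 on the arrays numbered 1 and 2, and 4.73 and 4.76 on those numbered 3. Of the monocyte and sort genes, Itgam, Itgax, Ccr2 and Csf1r fell and Ly6c2 rose. Ly6c2 stood at 6.81 in spleen and 8.29 in tumor, and Ccr2 at 6.86 and 5.93. Itgax, which encodes the CD11c the sort selected against, was high in both groups, at 11.16 and 10.31. Lyz2, a myeloid lysozyme gene, stood at 13.27 in spleen and 13.16 in tumor. Of the dendritic cell markers 2 of 7 rose and 1, Itgax, fell. The 2 were Ccr7, at 11.6 in spleen and 12.1 in tumor, and Zbtb46, at 6.82 and 7.71. Of the T and NK cell markers 0 of 9 rose and 1 fell. Endothelial markers had 1 of 5 higher and 1 lower, and epithelial markers 0 of 5 higher and 1 lower. B cell (4), erythroid (3), fibroblast (6) and melanocyte (5) markers had 0 calls (limma), and at an unadjusted p under 0.05 only the fibroblast list had any, 1 higher and 1 lower. With the replicate block 2 dendritic cell and 2 epithelial markers were lower, and of the fibroblast markers 1 was higher and 1 lower. Leaving out the monocyte and sort genes, the largest of these differences were those of Kdr (2.88 ± 0.23), Vwf and Cd3g (-1.36 ± 0.18). The part of such cells in the results on the 5 genes was not tested.

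The genes whose profile over the 6 arrays was most like that of each chemokine were found by Pearson correlation of log2(intensity + 1), given as a description since all points share the tumor and spleen difference. For Cxcl2 they were Letm2 (r = 0.996), Ifna15 (0.996) and Nod1 (0.995), which senses bacterial peptidoglycan. For Cxcl1 they were Ccdc173 (0.994), Ifit1bl2 (0.992) and Calcoco2 (0.990), and for Cxcl3 Slc30a9 (0.999), Arap2 (0.997) and Cbx1 (0.997). For Ppbp they were the diacylglycerol lipase gene Daglb (0.999), the HDL receptor gene Scarb1 (0.999) and the IL-6 receptor gene Il6ra (0.999), which fell by 1.54 ± 0.18, 0.95 ± 0.15 and 1.82 ± 0.18. For Pf4 they were Mapk7 (0.994), Cox8a (0.994) and Pex16 (0.993), none of which was called. Likeness of this kind was common for 3 of the genes, with 656, 690 and 824 of 16050 genes above r = 0.95 for Cxcl2, Cxcl3 and Ppbp, and rarer for Cxcl1 (85) and Pf4 (59).

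**Figure D5:**
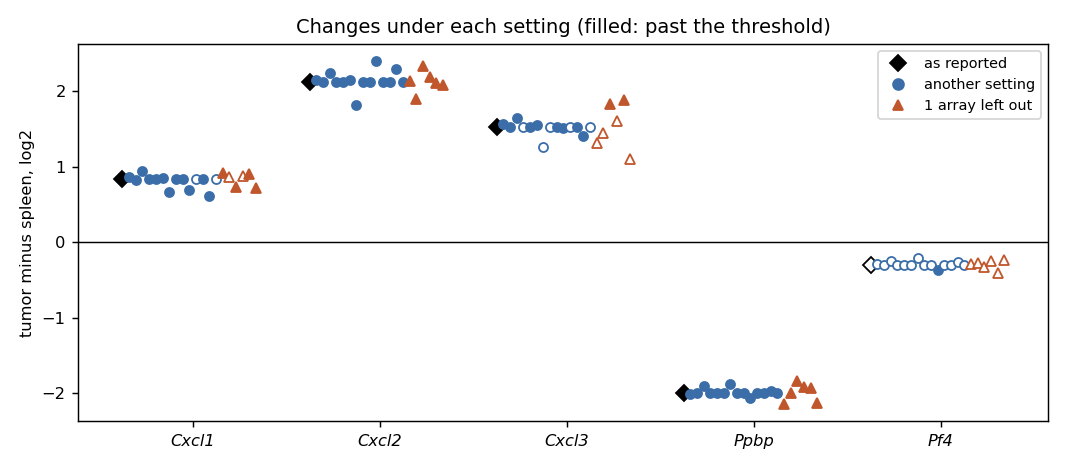
Difference between tumor and spleen of each chemokine under the reported setting (black diamond), each other setting with a test (blue circles) and with 1 array left out (orange triangles), on the log2 scale; filled points were past the threshold of their setting. Cxcl2 and Ppbp are filled throughout, Cxcl1 and Cxcl3 are open in some settings, and Pf4 is filled with array weights only.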

How the data were processed

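The authors deposited linear intensity values of each probe set, made with RMA per the submitters' processing notes. The sources used here do not give its version, settings or genome build, and array medians differ. RNA had an integrity number above 8.5 per the labels' protocols. Values were used as log2(intensity + 1). Probe sets with 1 gene symbol in GEO's platform annotation were kept (23521 of 41345; 1814 carry several symbols and 16010 none), the brightest standing for a gene, and a gene was tested if 3 or more arrays had it over their own 25th percentile. The test of tumor against spleen used limma 3.58.1 under R 4.3.3 (lmFit, eBayes, two-sided, group as the only term, Benjamini-Hochberg over all genes tested), tested on simulated data with known changes. The number of arrays limits the precision.

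The naming rule took the 5 members and the 3 genes most correlated with each member. From the functional lists it took called genes, up to 6 per list, or the 1 of smallest p. From each marker list it took the 2 largest called changes and the 2 highest levels. Some of these marker genes are not named in the text and enter only the counts. Other genes were chosen after their values were seen. Members, lists and the naming rule were chosen with earlier results of these data known. Equal replicate numbers were taken as pairs only in the replicate block and in the differences between arrays with the same number. The reported fit used no pairs. Deviations from group means correlated at 0.361, 0.44 and 0.709 for the numbers 1, 2 and 3. The unequal numbers 1 and 2 also correlated, at 0.463 (spleen 1 with tumor 2) and 0.347 (spleen 2 with tumor 1). These values therefore do not single out the pairs numbered 1 and 2, and mainly number 3 stands apart. Promoters were aligned globally with Biopython 1.88 (match 2, mismatch -1, gap opening -3, extension -1).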

Additional observations from a re-analysis of the deposited data

How the results depend on the processing

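Each of the 5 genes kept its direction under every alternative run. Cxcl2 and Ppbp kept their call in all 14 tested alternatives and with each array left out. Over the same settings, each at its own threshold, Cxcl1 lost its call in 4 and Cxcl3 in 9. These losses include the runs with 1 array left out. Cxcl1 (0.83) missed the threshold in the unmoderated fit (adjusted p = 0.0849) and at an adjusted p under 0.01, and the pair numbered 3 alone gave 1.27, and 1.80 for Cxcl2. Cxcl3 missed it with no filter (1.53, adjusted p = 0.0631), a pseudocount of 16 (1.26, 0.0763), the mean of probe sets (1.53, 0.0507), the unmoderated fit (1.53, 0.264) and at an adjusted p under 0.01. Pf4 passed it with array weights (-0.37, adjusted p = 0.00611). The replicate block changed the call of none of the 5 genes (Cxcl1 0.83, Cxcl2 2.13, Cxcl3 1.53, Ppbp -2.0, Pf4 -0.30; adjusted p between 9.3e-06 and 0.0664). With 1 array left out the changes lay between 0.73 and 0.92 for Cxcl1, 1.90 and 2.34 for Cxcl2, 1.11 and 1.88 for Cxcl3, -2.14 and -1.84 for Ppbp and -0.41 and -0.24 for Pf4. The count of all genes called, 1952, was 3506 with quantile normalization, 3289 with median centring, 3184 with cyclic loess, 7102 with array weights (2867 higher, 4235 lower), 901 unmoderated, 5346 with the replicate block, 2936 among the arrays numbered 1 and 2, 961 at an adjusted p under 0.01, and 1011 to 1924 with 1 array left out. Of the genes of the functional lists 24 were called higher and 7 lower. These were 37 and 15 with array weights, 11 lower with the replicate block, 4 lower at an adjusted p under 0.01, and 22 to 27 and 4 to 7 with 1 array left out. For 30 called genes of these lists 571 of 600 alternative values kept their call, 29 lost it and 0 reversed. Why calls changed was not tested.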

Other observations

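The exact kB sequence shared by Cxcl1, Cxcl2 and Cxcl3 stood in the promoter windows of 29 genes, of which 18 were tested. Of these, 5 were called higher in tumor (limma), 3 of which were the chemokines that supplied the sequence, and 0 lower. Without the 3 chemokines, 2 of 15 were called higher (13.3%) and 0 lower. Among the 14267 tested genes that have a promoter window, 5.77% were called higher and 5.12% lower. Besides the 3 chemokines, the genes called were Gbp5, a guanylate-binding protein gene, which rose by 4.68 ± 0.23 (limma adjusted p = 7.3e-06), and Nfkbia, the NF-kB inhibitor gene, which rose by 1.13 ± 0.21 (limma adjusted p = 0.00954). The other 13 tested genes, which ran from Zfp84 (-0.59 ± 0.24) to Krtap5-3 (0.55 ± 0.20), were not called, and the median of the 15 tested genes without the chemokines was -0.04. Of the 850 tested genes with the NF-kB consensus, 84 were called higher (9.88%) and 35 lower (4.12%), with a median of -0.02. The exact sequence was chosen after it had been seen in the chemokine promoters, so the 3 chemokines in this count are no independent evidence.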
